A study of Homo sapiens with 17 samples.

Results

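The effect of wild-type LKB1 on gene expression was measured in H2122, a human lung adenocarcinoma cell line, against the same line carrying the empty vector. Samples were chosen by title: 3 arrays titled for LKB1 and 2 titled for the vector, 5 of the 17 arrays of the study. H2122 and a further adenocarcinoma line, A549, had been transduced with the retroviral vector pBABE, either empty, carrying LKB1, or carrying LKB1 with the K78I change, a kinase-dead form. Cells were selected for 2 weeks in 1 µg/mL puromycin and grown in 5% serum, and 130 ng of total RNA went to each Affymetrix array. The 3 H2122 K78I arrays, and the 6 A549 arrays of LKB1 and vector, are given beside the main comparison. Whether replicates were separate transductions or cultures is not stated, so the p-values measure the spread between these samples only, and a stably expressing line gives no time course.

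LKB1, encoded by STK11, is a serine/threonine kinase that works in a complex with the pseudokinase STRAD and the scaffold MO25. It phosphorylates the activation loop of AMPK and of the AMPK-related kinases, among them the NUAK, MARK and SIK kinases. SIK kinases hold the CRTC coactivators in the cytoplasm, so that cells without LKB1 tend to have active CRTC and CREB-driven transcription. STK11 is often inactivated in lung adenocarcinoma.

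Promoter sequence of 4 genes is shown because each gene rose and its window holds a motif of CREB, interferon regulatory factors or TEAD, whose target lists are described below. B2M and TAP1 are members of the MHC class I list and CCN2 of the YAP and TEAD list, whereas FN1 is not on the CREB list, whose called members mostly fell. Each window is the 250 bases before the gene's start, from RefSeq on GRCh38.p14, written 5′ to 3′ on the gene's strand, with the motif in capitals. The motifs were the cyclic AMP response element TGACGTCA, bound by CREB; the interferon-stimulated response element, bound by interferon regulatory factors and searched as GAAA, any 2 bases and GAAA; and GGAATG, bound by TEAD factors. Both strands were searched.
FN1, chr2:215436069-215436318, minus strand: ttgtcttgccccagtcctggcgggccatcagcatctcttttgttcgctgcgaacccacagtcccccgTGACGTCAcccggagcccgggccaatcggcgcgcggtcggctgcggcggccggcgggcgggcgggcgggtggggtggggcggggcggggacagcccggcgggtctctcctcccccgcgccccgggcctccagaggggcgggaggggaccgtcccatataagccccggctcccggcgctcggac
B2M, chr15:44711267-44711516, plus strand: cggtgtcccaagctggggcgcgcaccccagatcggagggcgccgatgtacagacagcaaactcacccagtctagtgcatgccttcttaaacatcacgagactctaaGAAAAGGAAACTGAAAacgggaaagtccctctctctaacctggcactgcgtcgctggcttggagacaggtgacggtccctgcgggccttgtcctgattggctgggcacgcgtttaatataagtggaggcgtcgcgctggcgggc
TAP1, chr6:32853705-32853954, minus strand: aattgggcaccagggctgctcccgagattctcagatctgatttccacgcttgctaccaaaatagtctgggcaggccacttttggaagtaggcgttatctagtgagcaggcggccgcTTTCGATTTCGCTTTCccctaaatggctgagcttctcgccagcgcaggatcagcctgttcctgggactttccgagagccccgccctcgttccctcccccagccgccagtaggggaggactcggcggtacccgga
CCN2, chr6:131951373-131951622, minus strand: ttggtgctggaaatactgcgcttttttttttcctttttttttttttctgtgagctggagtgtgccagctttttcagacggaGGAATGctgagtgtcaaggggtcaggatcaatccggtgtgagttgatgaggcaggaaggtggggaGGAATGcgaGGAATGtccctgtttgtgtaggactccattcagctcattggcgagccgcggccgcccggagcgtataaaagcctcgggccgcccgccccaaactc
The FN1 window held 1 cyclic AMP response element, which began 183 bases before the start. The B2M and TAP1 windows each held 2 overlapping matches to the interferon-stimulated element, in TAP1 on the reverse strand, and the CCN2 window held 3 TEAD matches. Of 35116 such windows in the table, 1.65% held the cyclic AMP response element, 3.02% the interferon-stimulated element and 11.9% the TEAD motif. A match is a description of these letters only.

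STK11 (transcript cluster 8024204) measured 6.33 and 6.22 on the pBABE arrays and 11.20, 11.35 and 11.26 on the LKB1 arrays, in log2 units of the deposited levels. The K78I arrays measured 11.27, 11.31 and 11.26. The LKB1 and vector arrays were thus far apart, and wild-type and kinase-dead STK11 lay at a like level. The difference was 4.99 ± 0.94 (standard error, SE), a 31.8-fold higher level, with adjusted p = 0.00479. All differences below are LKB1 minus pBABE means in log2 units with the SE of a limma fit to all 17 arrays, and p-values are adjusted by the Benjamini-Hochberg method over 17958 genes. The STK11 call was lost without pBABE replicate 2 (adjusted p = 0.0507), although the difference was then 4.94; the spread for this gene is shared with A549, where pBABE replicate 3 measured 10.52 and K78I replicate 2 measured 7.14, against their titles. Without those 2 A549 arrays the adjusted p was 2.73e-08. STK11 matched the title on the H2122 arrays of LKB1 and vector. For 3 H2122 samples the source name gave another construct than the title: pBABE replicate 2 (LKB1), LKB1 replicate 3 (K78I) and K78I replicate 3 (vector). Titles were kept. Wild-type and kinase-dead cells cannot be told apart by STK11. LKB1 replicate 3 measured 11.20 for FN1 and 8.45 for CDH2, with the other LKB1 arrays and not with the K78I arrays. Both genes were chosen with results of these titled groups known, so their levels do not settle which label is right.

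The 2 vector arrays differed from each other more than other H2122 replicates. The SD of their difference over all genes was 0.52, against 0.226 to 0.322 for pairs of LKB1 arrays and 0.239 to 0.299 for pairs of K78I arrays. pBABE replicate 2 had a mean of 7.69 over 47 cell cycle genes, where pBABE replicate 1 had 9.41, the LKB1 arrays 8.99 to 9.21 and the K78I arrays 9.35 to 9.39. Over 35 genes of the ATF4 stress response and serine synthesis its mean was 9.60, against 8.77 for pBABE replicate 1, 8.60 to 8.78 for LKB1 and 8.81 to 8.85 for K78I. The array with low cell cycle and high ATF4 genes was therefore one of only 2 controls, and its part in the results was not tested beyond leaving it out. Without it the vector group is a single array, assumed to vary like the other groups.

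**Figure D1:**
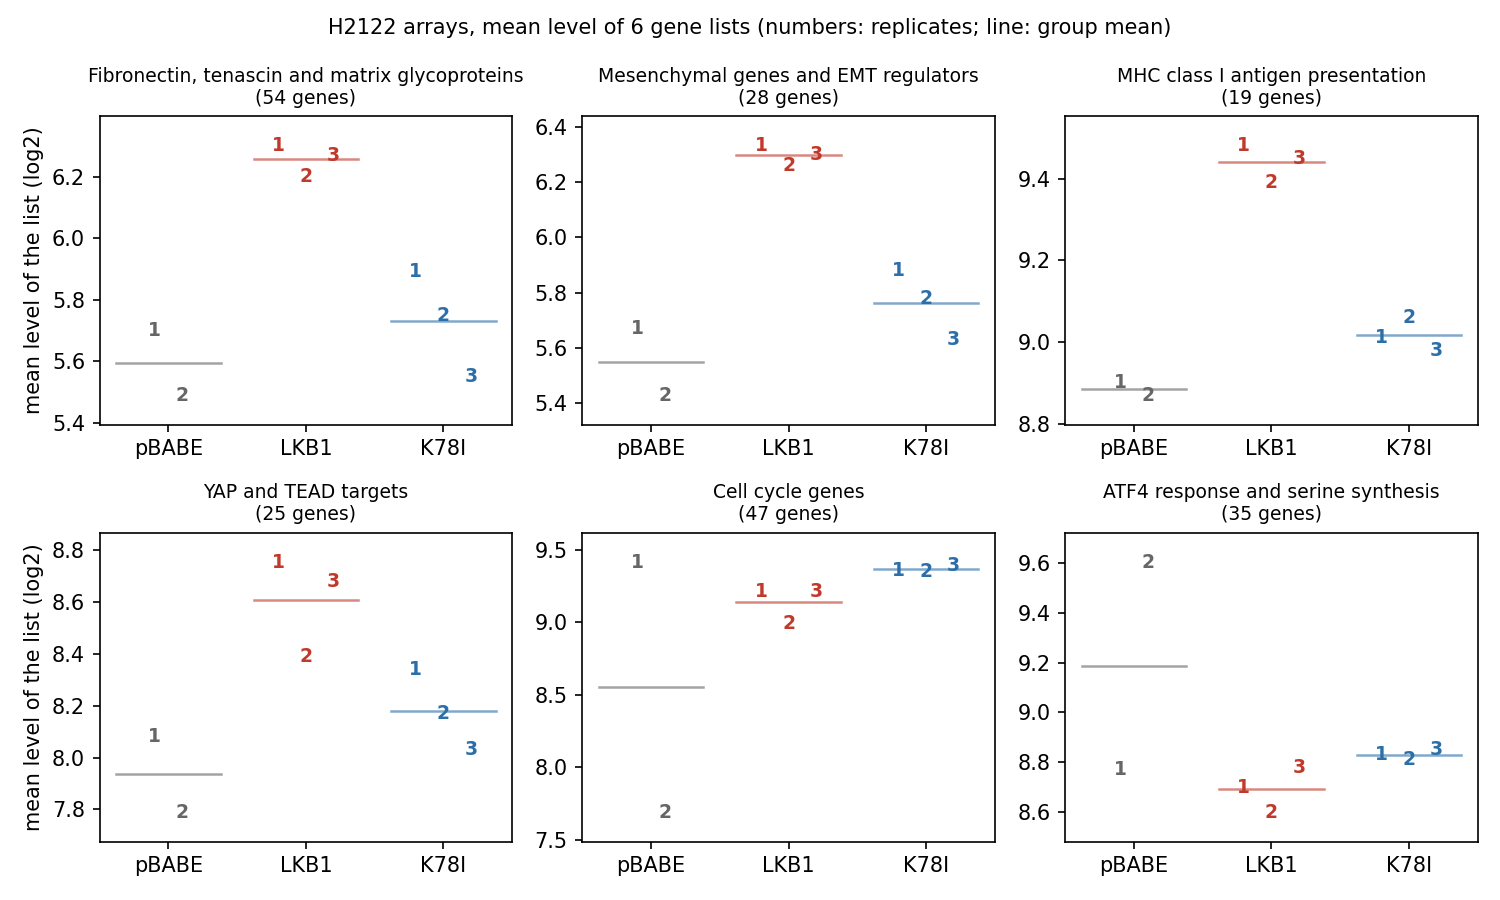
Mean log2 level of 6 gene lists on each H2122 array, by construct; numbers are replicates and lines are group means. pBABE replicate 2 stands at 7.69 for cell cycle genes and 9.60 for ATF4 genes, apart from the other 7 arrays, while for matrix, mesenchymal, MHC class I and YAP genes the 3 LKB1 arrays lie above both vector arrays.

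Wild-type LKB1 raised 749 genes and lowered 288, together 1037 of 17958 genes (5.77%; 4.17% higher and 1.6% lower). Of these, 423 rose and 107 fell by at least 2-fold. Among called genes whose LKB1 arrays all lay beyond both vector arrays, the largest rises after STK11 were those of FN1 (4.79), FST (4.12) and TNC (3.79), and the largest falls those of PDE3A (-2.97), CPS1-IT1 (-2.93) and STC1 (-2.6). The median difference of all genes was -0.05, and with each array centred on its median the same test gave 628 higher and 465 lower. Without pBABE replicate 2 the counts were 385 higher and 77 lower (2.57% of genes), and without pBABE replicate 1 they were 996 and 804. All 1037 genes kept their sign without pBABE replicate 2, and 43.9% of the rises but 17% of the falls were then also called. Of these genes, 747 rises and 287 falls had all LKB1 arrays beyond both vector arrays, so their sign could not change. The median of the rises was 1.09 with both vector arrays and 1.00 without replicate 2. That of the falls was -0.83 and -0.63. Among the rises 66.1% had pBABE replicate 2 below replicate 1 (52.2% of all genes), and among the falls 76.7% had it above (47.5% of all genes). A total of 293 genes, 261 higher and 32 lower, passed in all 17 fits that each left out 1 array; such genes are called stable to leaving out any array below. Kinase-dead LKB1 against vector gave 0 called genes by limma, with 1260 genes at an unadjusted p under 0.05 (7.02%). STK11 was thus not called there either, although its K78I arrays lay far above both vector arrays. A count of 0 therefore does not show that the kinase-dead form had no effect. Over the 749 rises the K78I arrays stood at medians of 0.42, 0.30 and 0.22 above the vector mean. Over the 288 falls the medians were -0.37, -0.33 and -0.19. These genes were called against the same vector mean, which by itself moves the K78I medians in the direction of the call. The medians are thus no measure of a K78I effect. Wild-type against kinase-dead LKB1 gave 698 called genes (3.89%). These comparisons share arrays with the main one, and their values are set side by side only.

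Among the largest rises were FN1, CDH2 and IGFBP7, for fibronectin, N-cadherin and an insulin-like growth factor binding protein of the matrix. FN1 (8058765) measured 7.44 and 5.21 on the pBABE arrays, 11.15, 10.98 and 11.20 on the LKB1 arrays, and 8.71, 7.72 and 7.90 on the K78I arrays. The LKB1 arrays lay well above both vector arrays, which themselves differed by more than 2 units. FN1 rose by 4.79 ± 0.56 (27.6-fold, adjusted p = 0.000115), and by 3.67 without pBABE replicate 2 (adjusted p = 0.0028). These values are of the brightest FN1 probe set; with the mean of the gene's probe sets the rise was 2.55 (adjusted p = 0.000405). CDH2 (8022674) measured 5.29 and 4.49 with the vector, 8.05, 8.46 and 8.45 with LKB1, and 6.04, 6.13 and 5.50 with K78I. It rose by 3.43 ± 0.24 (10.8-fold, adjusted p = 4.08e-06). IGFBP7 (8100541) measured 7.6 and 6.49 with the vector, 10.50, 10.90 and 10.91 with LKB1, and 8.70, 8.10 and 7.90 with K78I, a rise of 3.72 ± 0.34 (13.2-fold, adjusted p = 1.57e-05). For all 3 genes the LKB1 arrays lay above the K78I arrays, which lay above the vector arrays, and the call was stable to leaving out any array. Against K78I the LKB1 level was higher by 3.0 for FN1 (adjusted p = 0.00326), 2.43 for CDH2 (adjusted p = 3.01e-05) and 2.54 for IGFBP7 (adjusted p = 0.000334).

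**Figure D2:**
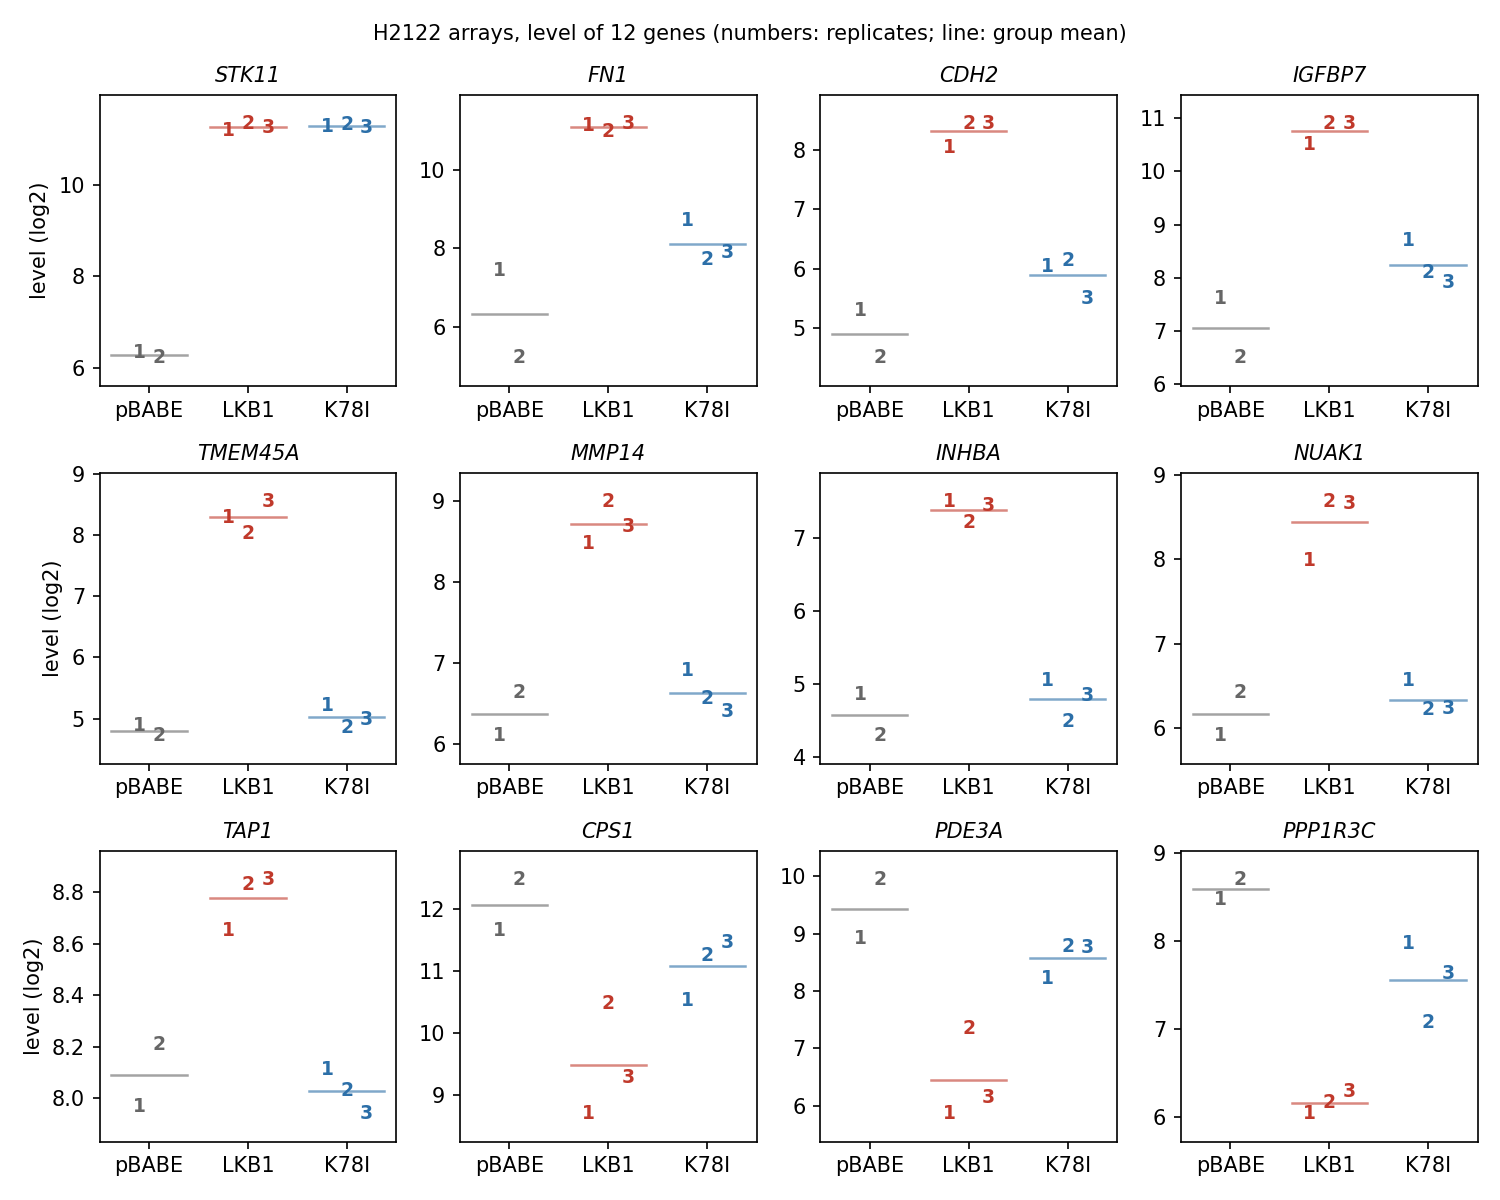
Log2 level of 12 genes on each H2122 array, by construct, with a separate vertical axis for each gene; numbers are replicates and lines are group means. STK11 is high with both LKB1 and K78I, whereas the 8 other genes that rose are highest on the 3 LKB1 arrays, and CPS1, PDE3A and PPP1R3C are lowest there.

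The gene with the lowest adjusted p was TMEM45A, for a transmembrane protein. It measured 4.89 and 4.72 with the vector and 8.28, 8.02 and 8.55 with LKB1, and on the K78I arrays it stayed between 4.86 and 5.22. The vector arrays lay close together, and the rise was 3.47 ± 0.17 (11.1-fold, adjusted p = 3.55e-08). SLC2A12, a glucose transporter gene, measured 4.64 and 5.07 with the vector, 8.08, 8.90 and 8.55 with LKB1 and 5.88 to 6.80 with K78I, a rise of 3.66 ± 0.31 (adjusted p = 1.14e-05). ROS1, which encodes a receptor tyrosine kinase, rose by 3.66 ± 0.40 (adjusted p = 8.32e-05), from 6.81 and 5.03 to between 9.19 and 9.92. LRRN1 rose by 3.65 ± 0.33 and VSNL1, a neuronal calcium sensor gene, by 3.50 ± 0.55 (adjusted p = 1.53e-05 and 0.00136). For VSNL1 the vector arrays stood at 7.05 and 4.90, the K78I arrays at 7.40 to 8.90 and the LKB1 arrays at 9.14 to 9.82. These 5 calls were stable to leaving out any array, and each rise without pBABE replicate 2 was at least 2.43.

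Of the LKB1 complex, only STK11 rose; the gene of the pseudokinase, STRADA, measured 6.37 and 6.47 with the vector and 6.48 to 6.59 with LKB1, and CAB39, which encodes MO25, 9.50 and 9.40 against 9.28 to 9.84. Of 19 measured genes of AMPK and the AMPK-related kinases 3 rose and 0 fell (15.8% called, against 5.77% of all genes, median -0.01). NUAK1 measured 5.91 and 6.42 with the vector, 7.99, 8.69 and 8.66 with LKB1 and 6.22 to 6.56 with K78I. It rose by 2.28 ± 0.24 (4.86-fold, adjusted p = 6.65e-05) and was stable to leaving out any array. NUAK2 measured 6.07 and 5.92 with the vector, 8.06, 8.36 and 8.15 with LKB1 and 6.29 to 6.70 with K78I, a rise of 2.20 ± 0.45 (adjusted p = 0.0082, and 0.0756 without pBABE replicate 2, where the difference was 2.12). NUAK1 and NUAK2 are substrates of LKB1, and for both the K78I arrays lay near the vector arrays. The third, MARK1, differed by 0.51 ± 0.14 (adjusted p = 0.0375). Its call was lost without pBABE replicate 1 (0.24), any LKB1 array (0.0836, 0.0971 and 0.103), A549 LKB1 replicate 3 (0.0546) or K78I replicate 3 (0.0539), and with the replicate number as a block (0.058), median centring (0.0607), a trended prior (0.0508), array weights (0.101), the 8 H2122 arrays alone (0.0855) or the 5 arrays alone (0.18).

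The list of CREB and CRTC targets was written from general knowledge, but with earlier results of these data known. It holds PDE3A and CPS1, which are among the largest falls, so its calls are not independent of the choice. Of its 30 measured members 6 fell and 1 rose (23.3% called, against 5.77% of all genes). Their median was -0.65, and that of all genes -0.05. Without pBABE replicate 2 the counts were 1 and 0 and the median -0.29. Among all genes calls also became fewer then, and the median was -0.06. PDE4D, which encodes a cyclic AMP phosphodiesterase, measured 9.40 and 9.83 with the vector, 7.76, 8.69 and 8.05 with LKB1 and 8.78 to 9.03 with K78I. It fell by 1.45 on the log2 scale (SE 0.22, adjusted p = 0.00112), and its call was stable to leaving out any array. PDE4D was not called in a limma fit of the 5 arrays alone (adjusted p = 0.0657). PDE3A, for another phosphodiesterase, measured 8.91 and 9.95 with the vector, 5.86, 7.35 and 6.15 with LKB1 and 8.22 to 8.78 with K78I. Among called genes with all LKB1 arrays beyond both vector arrays it had the largest fall, -2.97 ± 0.58 (adjusted p = 0.00621). Without pBABE replicate 2, which leaves 1 vector array, its difference was -2.45 and it was not called. PDE4B fell by 1.04 (SE 0.18, adjusted p = 0.00293), from 5.23 and 5.82 to between 4.29 and 4.61, and without pBABE replicate 2 its adjusted p was 0.0632. CPS1, whose enzyme makes carbamoyl phosphate for the urea cycle, measured 11.66 and 12.49 with the vector, 8.69, 10.47 and 9.28 with LKB1 and 10.52 to 11.46 with K78I. Its LKB1 arrays all lay below both vector arrays, and LKB1 replicate 2 lay close to the lowest K78I array. CPS1 fell by 2.6 (SE 0.59, adjusted p = 0.0157), and it did not pass without pBABE replicate 2 (0.158), without LKB1 replicate 1 (0.0709), or without LKB1 replicate 3 (0.0594). CPS1-IT1, an RNA transcribed within CPS1, differed by -2.93 ± 0.68 (adjusted p = 0.0183), with adjusted p = 0.204, 0.0692 and 0.0727 without the same 3 arrays; its signal and that of CPS1 cannot be told apart.

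**Figure D3:**
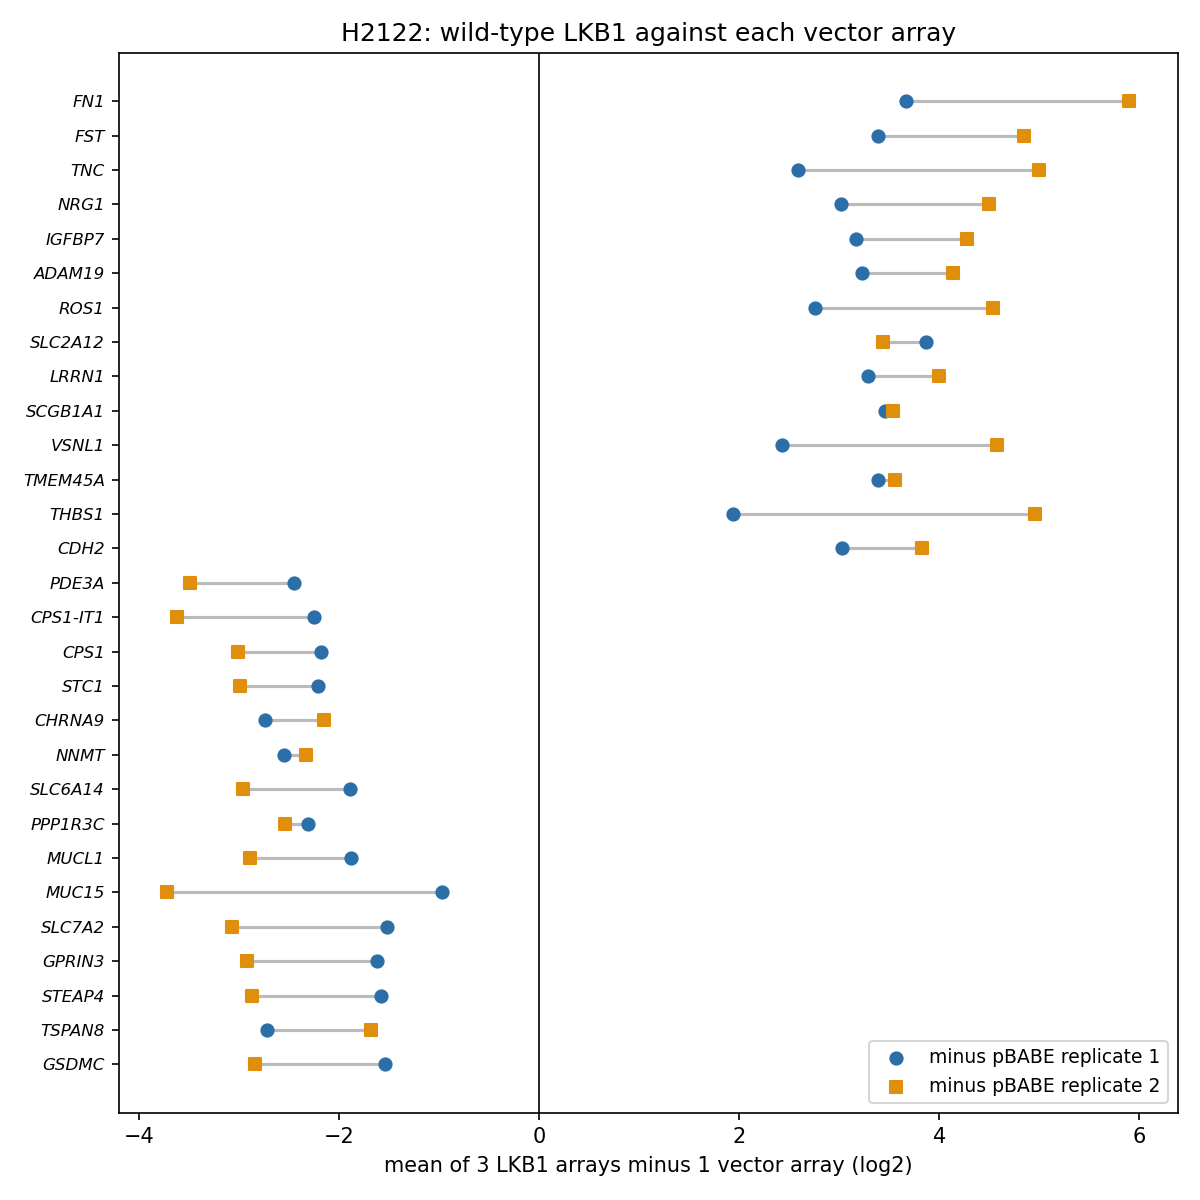
Mean of the 3 LKB1 arrays minus each single vector array, in log2 units, for the genes that rose or fell most apart from STK11; circles use pBABE replicate 1 and squares pBABE replicate 2. The genes were chosen with all LKB1 arrays beyond both vector arrays, so the sign against either vector array is fixed by that choice. The 2 values lie farthest apart for THBS1 and MUC15.

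Of the other large falls, the one with the lowest adjusted p was that of PPP1R3C, which encodes a subunit that brings protein phosphatase 1 to glycogen. It measured 8.47 and 8.70 with the vector, 6.04, 6.17 and 6.29 with LKB1 and 7.08 to 7.97 with K78I, and fell by 2.42 (5.35-fold, SE 0.25, adjusted p = 5.2e-05). CHRNA9, a nicotinic acetylcholine receptor subunit gene, measured 6.96 and 6.37 with the vector, 3.98, 4.84 and 3.82 with LKB1 and 5.82 to 6.83 with K78I, and fell by 2.45 (5.45-fold, SE 0.30, adjusted p = 0.000146). MUCL1, for a small secreted mucin-like protein, fell by 2.39 (adjusted p = 9.79e-05). The difference was -2.43 for the amino acid transporter gene SLC6A14 (adjusted p = 0.000522) and -2.22 for the metalloreductase gene STEAP4 (adjusted p = 0.000826). These 5 calls were stable to leaving out any array, and without pBABE replicate 2 the falls were between -2.74 and -1.57. For SLC6A14 the K78I arrays measured 7.55 to 8.67, overlapping the LKB1 arrays at 6.92 to 7.92, and LKB1 was not called different from K78I (-0.65, adjusted p = 0.312).

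The remaining genes of the 15 that fell most were called with both vector arrays and lost the call without an array. NNMT, for nicotinamide N-methyltransferase, fell by 2.43 (adjusted p = 0.00738, and 0.052 without pBABE replicate 2, where the fall was -2.54). The cationic amino acid transporter gene SLC7A2 fell by 2.30 and the gasdermin gene GSDMC fell by 2.19; without pBABE replicate 2 the values were -1.52 (adjusted p = 0.0874) and -1.54 (adjusted p = 0.121). STC1, which encodes the secreted glycoprotein stanniocalcin-1, fell by 2.6 (adjusted p = 0.02; 0.177 without pBABE replicate 2, 0.0839 and 0.0711 without LKB1 replicates 1 and 3). The membrane mucin gene MUC15 measured 5.72 and 8.47 on the 2 vector arrays and 4.32, 5.45 and 4.48 on the LKB1 arrays. Its fall of 2.34 became -0.97 without pBABE replicate 2 (adjusted p = 0.324), and the call was also lost without LKB1 replicates 1 and 3 (0.0938 and 0.0882). GPRIN3 fell by 2.27 (adjusted p = 0.0323; 0.29, 0.121 and 0.105 without the same 3 arrays, and 0.0655 with the replicate block), and its K78I arrays, at 4.92 to 5.66, lay within the LKB1 range of 4.76 to 6.01. The tetraspanin gene TSPAN8 went the other way: its vector arrays measured 8.70 and 7.66, and the fall was -2.20 (adjusted p = 0.015) with both and -2.71 (adjusted p = 0.0288) without pBABE replicate 2, while leaving out pBABE replicate 1 (0.104), LKB1 replicate 1 (0.0563) or LKB1 replicate 3 (0.0602) ended the call.

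In the matrix glycoprotein list a minority of members rose and none was called lower, and 34 differences were positive. This list, like the others, was chosen with earlier results of these data known. Called shares were 25.9% of matrix glycoproteins, 27.9% of collagen genes, 25.0% of integrins and laminins and 18.4% of metalloproteinases and related genes. Of all genes 5.77% were called, 4.17% higher and 1.6% lower, and 7397 of 17958 differences were positive. Of 54 measured matrix glycoproteins 14 rose and 0 fell, 10 without pBABE replicate 2, where 2.14% of all genes rose, and 7 were stable to leaving out any array; the median was 0.16, against -0.05 for all genes. TNC, for tenascin-C, measured 8.22 and 5.81 with the vector, 10.86, 10.53 and 11.03 with LKB1 and 7.21 to 8.76 with K78I. It rose by 3.79 ± 0.52 (adjusted p = 0.000486), and by 2.59 without pBABE replicate 2. THBS1, for thrombospondin-1, measured 10.56 and 7.54 with the vector, 12.60, 12.25 and 12.64 with LKB1 and 10.55 to 11.32 with K78I. Its rise of 3.45 ± 0.57 (adjusted p = 0.00198) was 1.93 without pBABE replicate 2 (adjusted p = 0.00678). LTBP2, which encodes a latent transforming growth factor beta binding protein, had close vector arrays, at 6.01 and 6.30, and rose to 8.59, 9.16 and 8.98, by 2.76 ± 0.24 (adjusted p = 1.16e-05); its K78I arrays stood at 6.04 to 6.73. SRPX, a sushi-repeat protein gene, rose by 3.11 ± 0.31 (adjusted p = 3.37e-05), TGFBI, for a secreted protein induced by transforming growth factor beta, by 1.74 ± 0.21 (adjusted p = 0.000155), and FBLN1, for fibulin-1, by 1.18 ± 0.19 (adjusted p = 0.00135).

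Of 43 measured genes of collagens and the enzymes that modify or cross-link them, 12 rose and 0 fell, and 20 of the 43 differences were positive; 4 rose without pBABE replicate 2, and the same 4 in every fit that left out an array. COL27A1, a fibrillar collagen gene, measured 5.53 and 5.50 with the vector, 7.40, 7.45 and 7.73 with LKB1 and 5.87 to 6.19 with K78I, a rise of 2.01 ± 0.18 (adjusted p = 1.57e-05). COL4A2, for a basement membrane collagen chain, rose by 2.29 ± 0.27 (adjusted p = 0.00013), from 6.95 and 6.04 to between 8.71 and 8.89. The other two encode enzymes that hydroxylate collagen: P4HA2, a prolyl hydroxylase subunit, rose by 1.32 ± 0.20 and PLOD2, a lysyl hydroxylase, by 0.96 ± 0.18 (adjusted p = 0.00119 and 0.00431). Of 32 integrin and laminin genes 8 rose and 0 fell (median 0.06), 5 and 0 without pBABE replicate 2. ITGAV, an integrin subunit for fibronectin and other matrix proteins, measured 10.25 and 10.14 with the vector, 11.91, 11.98 and 11.88 with LKB1 and 10.40 to 10.80 with K78I, and rose by 1.73 ± 0.26 (adjusted p = 0.00112). Its partner gene ITGB6 measured 7.99 and 7.93 with the vector and 10.60, 10.71 and 10.71 with LKB1, a rise of 2.72 ± 0.52 (adjusted p = 0.00568) that lost its call without pBABE replicate 2 (2.68, adjusted p = 0.0567). ITGA6, a laminin receptor subunit gene, rose by 1.06 ± 0.15 (adjusted p = 0.000668), and its K78I arrays, at 9.56 to 9.95, surrounded the vector arrays at 9.82 and 9.64.

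Of 49 genes of matrix metalloproteinases, related proteases and their inhibitors 9 rose and 0 fell (median 0.17). Without pBABE replicate 2, 6 rose and 1 fell, ADAMTS19, a dim gene at 4.62 and 4.04 with the vector and 3.94 to 4.04 with LKB1 (-0.63, adjusted p = 0.0496). MMP14, a membrane-bound metalloproteinase gene, measured 6.1 and 6.64 with the vector, 8.48, 9.0 and 8.69 with LKB1 and 6.4 to 6.91 with K78I. It rose by 2.36 ± 0.21 (adjusted p = 1.46e-05), and the K78I and vector arrays overlapped. ADAM19 rose by 3.68 ± 0.49 (adjusted p = 0.000355), from 6.35 and 5.44 to between 9.17 and 9.91. MMP7, for matrilysin, measured 4.74 and 4.17 with the vector and 7.96, 6.36 and 7.37 with LKB1, a rise of 2.77 ± 0.59 (adjusted p = 0.0101) that was 2.49 without pBABE replicate 2 (adjusted p = 0.107).

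Among 28 mesenchymal genes and regulators of epithelial-mesenchymal transition 10 rose and 0 fell (median 0.28), 6 without pBABE replicate 2. TGFB1, the gene of transforming growth factor beta 1, measured 5.08 on both vector arrays, 7.53, 8.10 and 7.85 with LKB1 and 5.48 to 6.07 with K78I, a rise of 2.75 ± 0.31 (adjusted p = 8.45e-05). Its receptor gene TGFBR1 rose by 0.89 ± 0.15 (adjusted p = 0.00261). The actin-binding protein genes TPM1 and CALD1 rose by 2.03 ± 0.22 and 1.61 ± 0.15 (adjusted p = 7.15e-05 and 1.53e-05); with the mean of its probe sets TPM1 rose by 1.01 (adjusted p = 0.00131). All 4 were stable to leaving out any array. The transcription factor gene ZEB1 was dim, at 4.64 and 4.27 with the vector and 5.08, 5.38 and 5.17 with LKB1, and rose by 0.75 ± 0.16 (adjusted p = 0.00915, and 0.136 without pBABE replicate 2). SNAI2 measured 10.37 and 7.70 with the vector and 11.45 to 11.64 with LKB1, a difference of 2.54 ± 0.74 that did not pass (adjusted p = 0.0607). The vimentin gene VIM differed by 0.29 ± 0.14 (adjusted p = 0.309), between 4.42 and 4.91 on these 5 arrays. Of 46 epithelial and junction genes 4 rose and 2 fell (median -0.01), and without pBABE replicate 2 the counts were 1 and 1. CDH3, for P-cadherin, rose by 1.70 ± 0.20 (adjusted p = 0.000109), from 8.74 and 8.49 to between 10.09 and 10.46, and ESRP2, an epithelial splicing regulator gene, fell by 0.72 (SE 0.12, adjusted p = 0.00239), both stable to leaving out any array. The E-cadherin gene CDH1 measured 10.30 and 10.36 with the vector and 10.73 to 10.86 with LKB1, and was not called (0.48 ± 0.34, adjusted p = 0.533). The epithelial markers EPCAM and KRT8 were high on all 5 arrays, at 11.14 to 11.25 and 11.50 to 11.99. The called share was 35.7% of the mesenchymal list and 13.0% of the epithelial list, against 5.77% of all genes.

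Among 25 genes of insulin-like growth factor binding proteins, follistatins and activins 6 rose and 0 fell (median 0.12), 4 without pBABE replicate 2. INHBA, which encodes the activin A subunit, measured 4.86 and 4.29 with the vector, 7.51, 7.22 and 7.45 with LKB1 and 4.48 to 5.05 with K78I. It rose by 2.82 ± 0.23 (7.07-fold, adjusted p = 1.04e-05). FST, for follistatin, which binds and blocks activin, measured 6.47 and 5.01 with the vector, 10.23, 8.60 and 10.75 with LKB1 and 6.25 to 8.06 with K78I. It rose by 4.12 ± 0.60 (adjusted p = 0.000788), with LKB1 replicate 2 the lowest LKB1 array by more than 1 unit. Among called genes with all LKB1 arrays beyond both vector arrays only STK11 and FN1 rose more. A further follistatin-like gene, FSTL3, rose by 2.21 ± 0.42 (adjusted p = 0.00481), and by 1.41 without pBABE replicate 2, where the call was lost (adjusted p = 0.0976). Among 32 genes of MAPK feedback and ERBB ligands 4 rose and 0 fell (median -0.09), 1 without pBABE replicate 2. NRG1, for neuregulin, a ligand of ERBB receptors, measured 6.13 and 4.65 with the vector, 9.06, 8.75 and 9.63 with LKB1 and 6.95 to 7.54 with K78I; it rose by 3.76 ± 0.35 (adjusted p = 1.89e-05) and was the one stable to leaving out any array. Of 30 neuronal adhesion genes 7 rose and 0 fell (median -0.01), 3 without pBABE replicate 2. TENM2, a teneurin gene, measured 3.74 and 3.37 with the vector, 5.78, 7.25 and 7.69 with LKB1 and 3.50 to 3.90 with K78I, and rose by 3.36 ± 0.38 (adjusted p = 8.99e-05). CNTN5, for a contactin, rose by 1.15 ± 0.19 (adjusted p = 0.00213) but stayed dim, at 3.79 to 4.53 with LKB1. In these 3 lists the called share was 24.0%, 12.5% and 23.3%, in the order given, against 5.77% of all genes.

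MHC class I molecules carry peptides, trimmed and loaded by the proteins of this list, to the cell surface. Of the measured members 42.1% were called, against 5.77% of all genes. Over all 17958 genes 7397 differences were positive. Of 19 measured genes of MHC class I antigen presentation 8 rose and 0 fell; 18 of the 19 had a positive difference, and the median was 0.54, against -0.05 for all genes, and 0.52 without pBABE replicate 2. TAP1, the peptide transporter subunit whose promoter is shown above, measured 7.97 and 8.21 with the vector, 8.65, 8.83 and 8.85 with LKB1 and 7.94 to 8.11 with K78I, a rise of 0.69 ± 0.12 (adjusted p = 0.00305). ERAP2, a peptide-trimming protease gene, rose by 1.25 ± 0.21 (adjusted p = 0.00201). The HLA-G and HLA-F probe sets rose by 0.99 ± 0.17 and 1.01 ± 0.18 (adjusted p = 0.00274 and 0.00318); HLA genes are near-identical copies and a probe set may read several of them. These 4 were stable to leaving out any array. B2M, the invariant light chain, measured 9.18 and 9.47 with the vector, 10.04, 10.32 and 10.08 with LKB1 and 9.16 to 9.47 with K78I. The K78I arrays covered the vector range, and B2M rose by 0.82 ± 0.18 (adjusted p = 0.015); leaving out pBABE replicate 1 (0.0849) or LKB1 replicate 2 (0.0592) ended the call. HLA-B rose by 1.1 ± 0.22 (adjusted p = 0.0084) and TAPBP, for tapasin, by 0.76 ± 0.15 (adjusted p = 0.00634), and both lost the call without pBABE replicate 1 (0.0761 and 0.056). PSMB9, an immunoproteasome subunit gene, was called (1.17 ± 0.31, adjusted p = 0.0374), and lost the call in 8 of the 17 fits that left out an array, with adjusted p from 0.0502 to 0.322, and with the replicate block (0.0806). Of 17 members with a promoter window 8 held the interferon-stimulated element, among them 5 of the 8 that rose; 3.53% of tested genes with a window held it, 5.86% of the 614 genes that rose and 3.95% of the 228 that fell.

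In the other interferon and innate immune lists a larger share of members was called than of all genes (5.77%): 18.9% of interferon-stimulated genes, 21.4% of nucleic acid sensing genes and 22.9% of NF-kB targets and cytokines. Fewer members of each list were called without pBABE replicate 2, as was also the case among all genes. Of 37 interferon-stimulated genes 4 rose and 3 fell (median 0.03), and without pBABE replicate 2 the counts were 3 and 0. SAMD9L, an interferon-induced gene, measured 5.35 and 4.96 with the vector and 7.62, 7.12 and 7.32 with LKB1, rose by 2.20 ± 0.32 (adjusted p = 0.000832), and was the one stable to leaving out any array. STING1, the cytosolic DNA sensor adaptor, measured 7.11 and 7.54 with the vector and 7.26 to 7.75 with LKB1, so its groups overlapped; of its list of 14 sensing genes 3 rose, 0 without pBABE replicate 2. Of 35 targets of NF-kB, cytokines and checkpoint ligands 7 rose and 1 fell (median 0.22), and without pBABE replicate 2 the counts were 1 and 1. The checkpoint ligand genes CD274, for PD-L1, and PDCD1LG2, for PD-L2, rose by 1.83 ± 0.33 and 2.09 ± 0.37 (adjusted p = 0.00376 and 0.00335). CD274 measured 5.20 and 4.50 with the vector, 6.79, 6.11 and 7.14 with LKB1 and 4.86 to 5.90 with K78I. Without pBABE replicate 2 the rises were 1.48 and 1.49, with adjusted p = 0.0724 and 0.0728. The cytokine gene IL32 rose by 1.94 ± 0.36 (adjusted p = 0.00403), and IL33 fell by 0.68 (SE 0.14, adjusted p = 0.00667) at levels from 2.94 to 3.84, the lower end of the arrays; both were stable to leaving out any array.

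Among 25 targets of YAP and TEAD 6 rose and 0 fell (median 0.55), and without pBABE replicate 2 the count was 3 and the median 0.36. With both vector arrays 24.0% of the list was called, against 5.77% of all genes. PTPN14, for a phosphatase that restrains YAP, rose by 1.30 ± 0.21 (adjusted p = 0.00166), from 9.11 and 8.78 to between 10.18 and 10.28, and was stable to leaving out any array. CCN2, the matricellular growth factor whose promoter is shown above, measured 8.01 and 6.94 with the vector, 9.60, 9.03 and 9.32 with LKB1 and 8.76, 9.16 and 7.86 with K78I. The LKB1 and K78I arrays overlapped, and the rise of 1.84 ± 0.38 against vector (adjusted p = 0.00915) was 1.31 without pBABE replicate 2 (adjusted p = 0.151). The TEAD motif was in 13.6% of tested genes' windows, 16.3% of those that rose and 14.5% of those that fell, and the cyclic AMP response element in 2.86%, 2.61% and 1.75%.

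Of 32 lysosome and autophagy genes 5 rose and 0 fell (median 0.09, 0.25 without pBABE replicate 2, where the counts were 5 and 0). NPC2, which encodes a lysosomal cholesterol carrier, measured 10.02 and 10.03 with the vector, 11.74, 12.04 and 11.88 with LKB1 and 10.28 to 10.80 with K78I, a rise of 1.86 ± 0.20 (adjusted p = 7.15e-05). The cathepsin genes CTSS and CTSB rose by 2.01 ± 0.22 and 0.95 ± 0.16 (adjusted p = 8.45e-05 and 0.00232). All 3 were stable to leaving out any array. Of 30 genes of hypoxia and glycolysis 2 rose and 3 fell (median -0.08), PPP1R3C among the falls, and 1 rose and 2 fell without pBABE replicate 2. Called with both vector arrays were 15.6% of the lysosome list and 16.7% of the hypoxia list, against 5.77% of all genes. HK2, which catalyses the first step of glycolysis, measured 9.33 and 9.07 with the vector, 8.31, 8.15 and 8.38 with LKB1 and 8.79 to 9.19 with K78I, and fell by 0.92 (SE 0.18, adjusted p = 0.00641). PFKFB4, a regulator of glycolytic flux, rose by 1.48 ± 0.26 (adjusted p = 0.00302). Of 35 genes of the respiratory chain and mitochondrial biogenesis 0 rose and 1 fell (2.86% called), a call lost in some fits that left out 1 array. Only 1 of their differences was positive, against 7397 of 17958 among all genes, and the median was -0.24. Their mean was 9.41 on both vector arrays, 9.07, 9.14 and 9.14 with LKB1 and 9.28, 9.38 and 9.50 with K78I. No member was called among 28 genes of sterol and fatty acid synthesis (median 0.04), 27 targets of NRF2 (-0.05), 47 cell cycle genes and 35 ATF4 response genes by limma; the median of cell cycle genes was 0.60 with both vector arrays and -0.27 without pBABE replicate 2, and that of ATF4 genes -0.45 and -0.19. Without that array 1 ATF4 list member was called, the lipoprotein receptor gene VLDLR (1.63, adjusted p = 0.0247), at 5.79 and 7.13 with the vector and 7.30 to 7.53 with LKB1.

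Lineage markers were mixed. Called were 16.7% of mucin, gastrointestinal and hepatic genes and 22.2% of alveolar and club cell markers, against 5.77% of all genes. CPS1 is on the first of these lists as well as on the CREB list. Of 42 mucin, gastrointestinal and hepatic genes 6 fell and 1 rose (median -0.15), and without pBABE replicate 2 the counts were 2 and 1. The membrane mucin gene MUC1 measured 9.60 and 10.62 with the vector, 8.57, 8.80 and 8.62 with LKB1 and 9.13 to 9.90 with K78I, a fall of -1.44 ± 0.26 (adjusted p = 0.00368) that became -0.93 without pBABE replicate 2 (adjusted p = 0.0721). The gene that rose was FOXA2, an endodermal transcription factor gene (0.87 ± 0.16, adjusted p = 0.00416). Of 18 alveolar and club cell markers 4 rose and 0 fell (median -0.01), 2 and 0 without pBABE replicate 2. SCGB1A1, the secretoglobin of club cells, measured 5.97 and 5.89 with the vector, 10.09, 8.58 and 9.62 with LKB1 and 8.28, 6.75 and 8.16 with K78I, a rise of 3.50 ± 0.41 (adjusted p = 0.000109). All K78I arrays also lay above both vector arrays for this gene. PDPN, a marker of type I alveolar cells, rose by 2.81 ± 0.32 (adjusted p = 8.99e-05), from 5.00 and 4.67 to between 6.90 and 8.19. NKX2-1, the lung lineage factor, lay between 4.81 and 5.80 on these 5 arrays. KRT5, a basal cell keratin, rose by 2.44 ± 0.43 (adjusted p = 0.00323), with LKB1 arrays spread from 5.95 to 7.96. These markers, apart from MUC1 and NKX2-1, were stable to leaving out any array.

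Markers of other cell types were low and changed in few members. Called were 6.25% of fibroblast, 12.5% of blood cell and 8.33% of endothelial markers, against 5.77% of all genes. The mean over 16 fibroblast markers was 4.53 and 4.37 with the vector and 4.31 to 4.50 with LKB1, and 1 rose, FBLN1. The mean over 16 blood cell markers was 4.76 and 4.63 with the vector and 4.81 to 5.04 with LKB1, and 2 rose; the defining leukocyte gene PTPRC lay between 2.83 and 3.27 on all 5 arrays. One of those 2 was LCP1, which encodes an actin-bundling protein of leukocytes that carcinoma lines can also express. It measured 7.96 and 6.96 with the vector, 11, 10.41 and 10.88 with LKB1 and 7.80 to 9.14 with K78I, a rise of 3.31 ± 0.36 (adjusted p = 7.15e-05). Of 12 endothelial markers 0 rose and 1 fell, and of 13 neuroendocrine markers 0 were called by limma. Since these are bulk samples, a different share of cells and a different RNA level per cell cannot be told apart.

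The same comparison in A549 uses other arrays. It called 987 genes (5.5%), of which 228 were called in the same direction in both lines, 196 higher and 32 lower, that is 22% of the H2122 list and 23.1% of the A549 list; 9 were called in opposite directions. The difference between the lines itself was called for 402 genes (2.24%), and for 230 of the 1037 H2122 calls (22.2%). A549 pBABE replicate 3 measured 10.52 for STK11 against its title, and it enters every A549 value. Without it and A549 K78I replicate 2 the count of differences was 809. A549 pBABE replicate 1 and A549 K78I replicate 2 had low cell cycle genes, as H2122 pBABE replicate 2 did. A549 pBABE replicate 1 also enters every A549 value, and without it the count of differences was 246. IGFBP7 measured 5.40, 5.68 and 6.03 on the A549 vector arrays and 9.40, 9.27 and 9.57 on the LKB1 arrays, a rise of 3.71 ± 0.30, and the difference between lines was 0.01 ± 0.46 (adjusted p = 0.996). PDE3A fell by 2.99 in A549 (SE 0.52) with a difference of 0.02 ± 0.78 (adjusted p = 0.997), and SLC2A12 rose by 3.09 ± 0.28 with a difference of 0.57 ± 0.41 (adjusted p = 0.691). FN1 rose by 4.79 in H2122 and differed by 1.76 in A549, and the difference did not pass (3.03 ± 0.75, adjusted p = 0.0509). CPS1 fell by 5.37 in A549, and its difference of 2.77 ± 0.79 did not pass either (adjusted p = 0.0969).

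Several of the largest H2122 effects differed between the lines. FST measured 6.92, 6.28 and 6.15 on the A549 vector arrays and 4.41, 4.11 and 3.98 on the LKB1 arrays; it fell by 2.28 there and rose by 4.12 in H2122, a difference of 6.4 ± 0.81 (adjusted p = 0.00073). VSIG1, an immunoglobulin-family adhesion gene, likewise fell by 2.15 in A549 and rose by 2.05 in H2122 (adjusted p = 0.0014), a difference of 4.20 ± 0.43 (adjusted p = 0.000192). The contactin gene CNTN1 fell by 3.65 in A549, and in H2122 it measured 7.56 and 7.19 with the vector and 8.78, 8.31 and 8.75 with LKB1, which did not pass (1.24 ± 0.36, adjusted p = 0.056); the difference was 4.89 ± 0.48 (adjusted p = 0.000107). TMEM45A, the gene with the lowest adjusted p in H2122, lay between 5.04 and 5.20 on all 6 A549 arrays, a difference of 3.39 ± 0.22 (adjusted p = 1.06e-06). CDH2 differed by 3.04 ± 0.32 (adjusted p = 0.000211), MMP14 by 2.46 ± 0.28 (adjusted p = 0.000311), and INHBA by 2.87 ± 0.31 (adjusted p = 0.000278); in A549 these 3 were not called.

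In the other direction, some genes that rose in A549 did not rise in H2122. SPARC, a collagen-binding matrix protein gene, measured 4.12, 4.0 and 4.61 on the A549 vector arrays and 9.75, 10.65 and 10.59 on the LKB1 arrays, but between 3.72 and 4.12 on all 5 H2122 arrays, a difference of -6.22 ± 0.33 (adjusted p = 1.76e-07). COL1A1, the type I collagen chain gene, rose by 3.82 in A549, while in H2122 it measured 7.49 and 7.72 with the vector and 6.84, 7.47 and 6.97 with LKB1, a difference of -4.33 ± 0.65 (adjusted p = 0.00274). ITGA11, a collagen receptor subunit gene, differed by -4.18 ± 0.27 (adjusted p = 1.06e-06), at 4.39 to 4.88 on the H2122 arrays, and the cadherin-family gene FAT3 by -3.29 ± 0.30 (adjusted p = 6.25e-05), at 3.31 to 3.67. NTS, for neurotensin, fell by 5.06 in A549 and lay between 3.47 and 4.08 in H2122, near the lower end of the arrays, so no further fall could be read there.

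**Figure D4:**
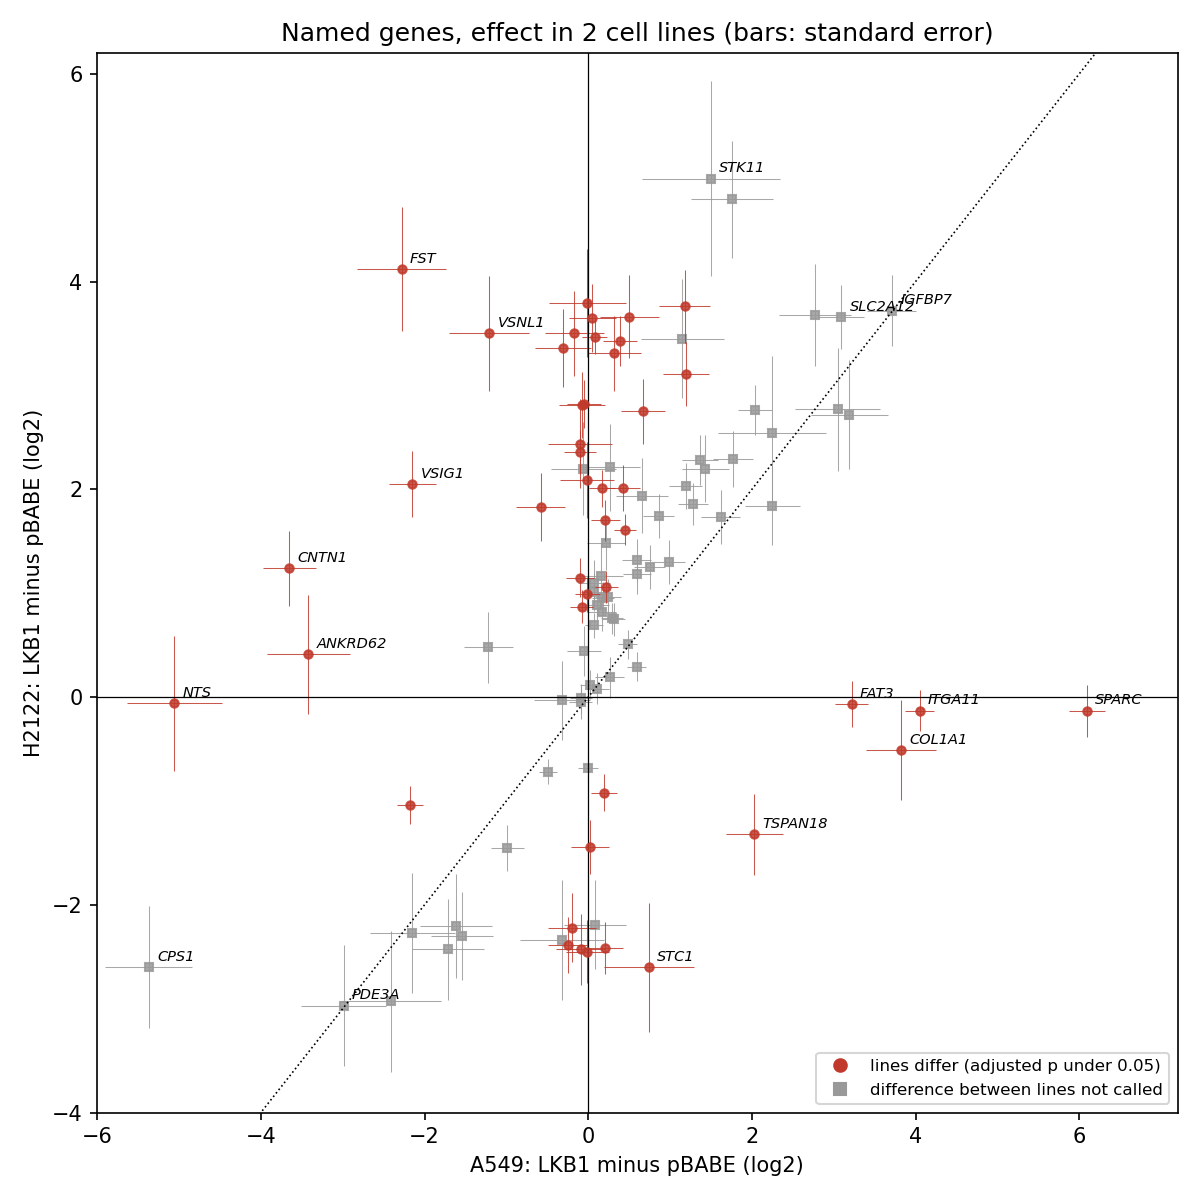
LKB1 minus pBABE in A549 (horizontal) and H2122 (vertical), in log2 units with SE bars, for the genes named in the text; red circles mark genes whose difference between lines was called, grey squares the others, and the dotted line marks equal effects. FST lies at -2.28 and 4.12 and SPARC at 6.09 and -0.13, while IGFBP7 and PDE3A lie on the line.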

How the data were processed

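RNA of 17 samples of A549 and H2122 was measured on 1 Affymetrix array each. The authors deposited log2 levels for 33297 probe sets, which the submitters' processing notes credit to RMA in Expression Console 1.1. RMA makes the distributions of all arrays alike, so a general shift of expression would be invisible, and the lowest levels cannot be separated from background. No source used here gives the genome build. The platform annotation pairs 19181 probe sets with a single symbol and 2055 with several, and 12061 are unnamed here; 19143 gene identifiers matched RefSeq. Where a gene had more than 1 probe set (895 genes), the brightest on average was kept, leaving 17958 genes.

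Groups came from sample titles. limma 3.58.1 in R 4.3.3 fitted 6 groups over all 17 arrays, with 11 residual degrees of freedom and a prior of 3.8, so that all groups share 1 spread per gene. p-values were adjusted by the Benjamini-Hochberg method and called under 0.05. The fit was tested on simulated data with independent noise and 1 spread per gene on all arrays. That test does not cover the wider spread of the H2122 vector pair. Array medians ran from 5.62 to 5.73, and precision is limited by how many arrays there are. The difference between lines was a contrast of the same fit.

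The gene lists (33) and the genes set out were chosen with earlier results of these data known. Named were STK11, FN1, CDH2 and IGFBP7; the 15 largest rises and 15 largest falls among called genes whose LKB1 arrays all lay beyond both vector arrays; from each list up to 5 called members, by lowest adjusted p; the called differences between lines that were largest, 6 in each direction; and other list members with values. Other genes that the rule names are given only in the counts of their lists. Promoters came from RefSeq, with windows for 13864 of the tested genes, and no protein sequences were used. Alternatives covered labels, single arrays, scaling, probe sets and the fit.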

Additional observations from a re-analysis of the deposited data

Results flagged for a closer look

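The LKB1 effect differed between H2122 and A549, by a test of the difference itself, for 32 genes named here; values are the H2122 effect minus the A549 effect in log2 units. Secreted and matrix genes that rose in H2122 and did not pass in A549 differed by 3.80 for TNC, 2.87 for INHBA, 2.46 for MMP14 and 1.84 for COL27A1, and NRG1, which rose in both, by 2.57. Genes of adhesion, membrane and cytoskeletal proteins differed by 3.04 for CDH2, 3.59 for LRRN1, 3.66 for TENM2, 3.39 for TMEM45A, 3.15 for ROS1, 2.98 for LCP1 and 1.15 for CALD1. Lineage and lysosomal genes differed by 3.67 for SCGB1A1, 2.89 for PDPN and 1.58 for CTSS.

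FST (6.4), VSIG1 (4.20), CNTN1 (4.89) and VSNL1 (4.72) had a positive difference in H2122 and a negative one in A549. NTS (5.00) and ANKRD62 (3.83) fell in A549 and were near the lower end of the H2122 arrays, ANKRD62 at 3.52 to 4.50; with the mean of its probe sets the ANKRD62 difference was 1.94. The rises of SPARC (-6.22), COL1A1 (-4.33), ITGA11 (-4.18), FAT3 (-3.29) and TSPAN18 (-3.35) were in A549. Genes that fell in H2122 and did not pass in A549 were CHRNA9 (-2.44), PPP1R3C (-2.62), MUCL1 (-2.14), SLC6A14 (-2.34), STEAP4 (-2.02) and STC1 (-3.35). The call of the difference held in all 17 fits that left out 1 array for 28 of the 32 genes. It was lost for SLC6A14 without H2122 pBABE replicate 2 (adjusted p = 0.0953), for ANKRD62 without that array (0.0879) or A549 LKB1 replicate 3 (0.0503), for STEAP4 in 9 fits (0.0536 to 0.14) and for STC1 in 12 fits (0.051 to 0.222) and with the replicate block (0.0576).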

How the results depend on the processing

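The 2 vector arrays set most of the limits. Leaving out 1 array gave 462 to 1800 genes called for LKB1 against vector (1037 with all arrays) and 147 to 1116 for the difference between lines (402). Without pBABE replicate 1 the counts were 1800 and 1116, and without pBABE replicate 2 they were 462 and 147; without LKB1 replicate 3 they were 639 and 200. The difference between lines also gave 235 without LKB1 replicate 1, and 246, 207, 639 and 175 without A549 pBABE replicate 1, A549 pBABE replicate 2, A549 K78I replicate 2 and A549 LKB1 replicate 3. Groups taken from source names gave 2 and 56 genes, and leaving out the 3 samples with conflicting labels gave 214 and 76. Under source names GPRIN3 changed sign in H2122 (0.04) and NRG1 in the difference between lines (-0.23). Array weights gave 645 for the first count, the 5 arrays alone 488, and leaving out both A549 controls with STK11 against the title, chosen after seeing the data, 809 for the second. The cause was not tested. The other settings kept both counts within 1.5 times.

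Same-numbered LKB1 and vector arrays deviated together with correlations of 0.36 and 0.42, but there are only 2 such pairs and the labels do not say what a number marks. With the replicate number as a block the counts were 935 and 397, and 82 of the 85 named genes that were called kept the call; MARK1, PSMB9 and GPRIN3 lost it. The 5 arrays alone ended 24 of the 85 calls and array weights 8. Among genes stable to leaving out any array, array weights ended the calls of IL33 (0.0572) and HK2 (0.0838). The 5 arrays alone ended those of PDE4D (0.0657), THBS1 (0.0977), ESRP2 (0.0517), CNTN5 (0.0773), TAP1 (0.0705), IL33 (0.0711), FOXA2 (0.055) and KRT5 (0.0907). Groups taken from source names kept 0 of the 85 calls. Many calls were also lost without the 3 samples with conflicting labels, a fit with 1 vector array. Some of these had been stable to leaving out any single array. The PDE4D difference was then -1.18. Leaving out arrays could hardly change the sign of called genes, since nearly all had the LKB1 arrays beyond both vector arrays. All 85 kept their sign except GPRIN3 under source names; 59 kept the call in every one of the 17 fits that left out 1 array.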
